A study of Mus musculus with 8 samples.

Results

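Calprotectin and stefin genes were examined in the colon of mice without mdr1a (Abcb1a), a gene for a pump that expels drugs from cells. The 7 genes are S100a8, S100a9, Stfa1, Stfa2, Stfa2l1, Stfa3 and Cstdc6, taken by symbol from the platform annotation among 19087 named genes on the array. A probe carried the symbol of 6 of them, with 8 probes in all among 44290 features: 3 for Cstdc6 and 1 for each of the other genes. No probe carried the symbol Stfa1, and its level was not analysed here. The set was picked because earlier results of these same arrays showed measured genes of it lower with curcumin, which cannot include Stfa1. Every diet difference of these genes given here is thus a description and carries no test.

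Each of the 8 arrays held the colon RNA of 1 male mdr1a-/- mouse. A group of 4 mice ate the AIN-76A diet with 0.2% curcumin, a polyphenol that colours turmeric yellow, and a group of 4 mice ate the AIN-76A diet alone (the control group). The control labels give the strain as Swiss, and the curcumin labels give the MDR1A-/- genotype in the sample name and no strain for that channel. An age of 7 weeks stands in the labels, but the mice of the design were followed from 7 to 24 weeks of age, with 12 mice per diet. Per the series description, the arrayed curcumin mice had low and the arrayed control mice high histological injury scores of the colon, and the effects of diet and of selection on injury cannot be told apart. The mouse RNA was labelled with Cy3 and a reference RNA with Cy5, and the deposited values are log2 ratios between them. The sources differ on the reference, which the design calls the reference RNA of all 8 arrays. The labels name the Cy5 channel as colon of Swiss mice on the diet of the array, with curcumin on curcumin arrays and without it on control arrays. Were the labels right, each diet would have its own reference, and a difference between the references could not be told apart from one between the mdr1a-/- mice; 1 common reference, as in the design, is taken here.

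S100A8 and S100A9 are small calcium-binding proteins that pair to form calprotectin, which neutrophils and monocytes carry in large amounts in the cytosol and release at sites of inflammation. Released calprotectin withholds zinc and manganese from microbes and is sensed through Toll-like receptor 4, and its level in stool is measured in the clinic as a sign of gut inflammation. Stefins are small cystatins that stay inside the cell and block cysteine proteases of the cathepsin family. In mice the stefin A genes form a cluster of close copies on chromosome 16, and myeloid cells of the bone marrow are among the cells that express them.

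The labels do not say which dye is on top of the ratio, and limma by default divides Cy5 by Cy3, which would put the reference on top. Signs here take the mouse sample over the reference, which is the likely direction from 3 measurements. Liver genes had a median log2 ratio between -3.58 and -3.26 on the 8 arrays, kidney genes between -2.39 and -1.39, and Xist, an RNA that female cells make to silence 1 X chromosome, between -1.57 and -1.05 in these male mice. In the other direction every sign below would turn. Liver and kidney ratios this far below 0 on all 8 arrays go against the labels, which name the reference as colon, so what RNA the ratios are relative to is not settled, and a log2 ratio of 0 means only a level equal to that RNA. All pairs of arrays correlated positively, between 0.747 and 0.922 across genes. On each array 191 to 397 features shared 1 log2 ratio, for a reason the sources do not state, and such values were set aside. None of the members' values was among them, and 2 were missing, both of Stfa2. Of 19 colon epithelium markers on the array, 14 had the shared value somewhere among the 8 arrays, and 8 could be tested, so the tissue label was checked on those 8 alone. Their mean log2 ratios were mixed. Cdx1 and Cdx2 lay above 0 in both groups, and Car1 and Muc2 below 0 in both. For Muc2 the means were -0.46 in curcumin mice and -1.01 in control mice. Car4, Slc26a3, Epcam and Cdh1 lay above 0 in curcumin mice and below 0 in control mice. Car4, a membrane-bound carbonic anhydrase, averaged 1.92 ± 0.70 in curcumin mice and -0.49 ± 0.54 in control mice (SD, n = 4 each). These ratios do not settle the tissue label, since the RNA they are relative to is not known. The file holds ratios and no intensities, so how far a probe lay above background is not known. The stated SEs rest on the spread among arrays. They do not account for disagreement between probes of 1 gene, for the slides used or for binding of RNA from close gene copies.

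The comparison of diets asked how much calprotectin and stefin transcript the colon held with and without curcumin. All 6 measured genes were lower in the curcumin mice, and in no probe did the groups overlap. The largest difference was that of S100a8, except that Cstdc6 passed it without control array 1 (-2.99 for Cstdc6 and -2.74 for S100a8 on the log2 scale), control array 2 (-3.45 and -3.29) or curcumin array 1 (-2.75 and -2.67), and the smallest that of Stfa2, which had values on 2 of the 4 curcumin arrays. In bulk tissue, fewer cells of a type and less RNA per cell cannot be told apart. Of the 5 members that could be tested, 4 had an adjusted p under 0.05 in limma, where 2.54% of the 23814 measurements tested were called in this direction. In all 5 every curcumin value lay below every control value, which held for 7.14% of all measurements. The members were chosen on this contrast, so nothing is read from either count. The first count was 1 of 5 without control array 1, control array 4 or curcumin array 4, and 2 of 5 without curcumin array 1, 2 or 3.

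S100a8, the smaller calprotectin subunit, had log2 ratios of -1.38, 0.40, 0.59 and -0.37 on curcumin arrays 1 to 4. On control arrays 1 to 4 it had log2 ratios of 3.88, 2.23, 3.08 and 2.35. Curcumin mouse 1 stood lowest and control mouse 1 highest, and the nearest values of the groups lay 1.64 apart on the log2 scale. The mean log2 ratio was -0.19 ± 0.90 in curcumin mice and 2.88 ± 0.76 in control mice (SD, n = 4 each), a log2 fold change of -3.07 (SE 0.48), or 8.40-fold lower with curcumin. S100a9, the larger subunit, had log2 ratios of -1.64, 0.75, 1.22 and -0.26 on curcumin arrays 1 to 4. Its control log2 ratios were 3.05, 2.89, 2.67 and 1.72. The groups came closer for this gene, with 0.50 between curcumin mouse 3 and control mouse 4. Its mean was 0.02 ± 1.27 in curcumin mice and 2.58 ± 0.60 in control mice (SD, n = 4 each), a log2 fold change of -2.56 (SE 0.56).

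The curcumin mice stood in the same order for both subunits, with mouse 3 highest, then mice 2, 4 and 1. Among the control mice, mouse 1 was highest for both subunits, while the lowest was mouse 2 for S100a8 and mouse 4 for S100a9. The mean of both subunits ran from -1.51 to 0.91 in curcumin mice and from 2.03 to 3.46 in control mice, so these transcripts varied over 2.41 log2 units among curcumin mice and over 1.43 among control mice.

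**Figure D1:**
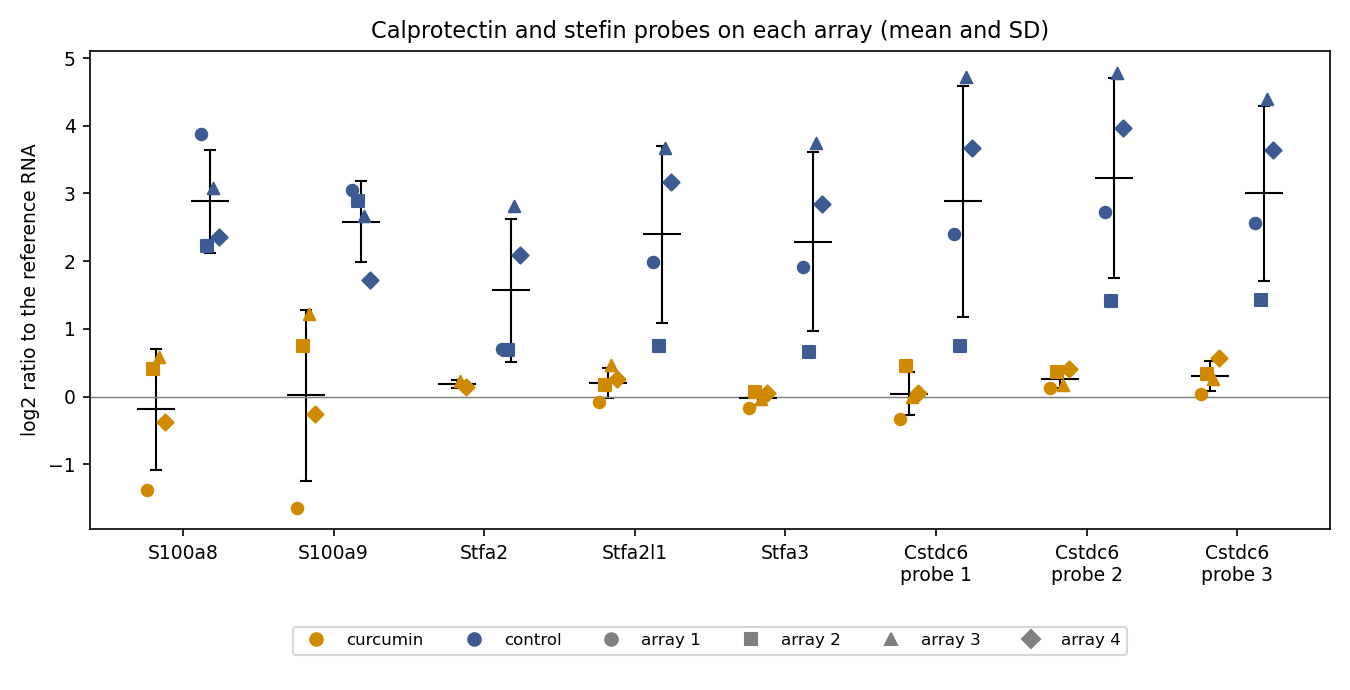
Log2 ratio to the reference RNA (vertical axis) of the 8 member probes, with curcumin arrays in orange left of control arrays in blue; symbols mark the array number, and the bar with whiskers is the mean with SD over 4 arrays (2 curcumin arrays for Stfa2). Control arrays 3 and 4 are highest for each stefin probe and control array 2 is lowest, while S100a8 and S100a9 are highest on control array 1.

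Among the stefins, Stfa3 had log2 ratios of -0.17, 0.06, -0.03 and 0.06 on curcumin arrays 1 to 4. On control arrays 1 to 4 it had 1.92, 0.65, 3.75 and 2.84. The curcumin mice were almost level with each other and with the reference RNA, while control mouse 3 exceeded control mouse 2 by 3.10 on the log2 scale. Its mean was -0.02 ± 0.11 in curcumin mice and 2.29 ± 1.32 in control mice (SD, n = 4 each), a log2 fold change of -2.31 (SE 0.54). Stfa2l1, a close copy of Stfa2, had log2 ratios of -0.07, 0.17, 0.46 and 0.26 on the curcumin arrays and 1.99, 0.74, 3.68 and 3.17 on the control arrays. Here only 0.29 separated control mouse 2 from curcumin mouse 3, and the log2 fold change was -2.19 (SE 0.54).

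Cstdc6, a cystatin-domain gene of the same cluster, was read by 3 probes, which gave nearly the same picture. Averaged over the probes, it had log2 ratios of -0.05, 0.38, 0.14 and 0.34 on curcumin arrays 1 to 4 and 2.57, 1.19, 4.63 and 3.76 on control arrays 1 to 4. The log2 fold changes of its single probes were -2.84 (SE 0.70), -2.96 (SE 0.60) and -2.70 (SE 0.53), which differ by less than their errors. Control array 3 held the highest log2 ratio of each probe, between 4.39 and 4.79. Stfa2 had log2 ratios of 0.23 and 0.15 on curcumin arrays 3 and 4, with no value on arrays 1 and 2. Its control log2 ratios were 0.70, 0.69, 2.81 and 2.09. With 2 values missing it did not enter the test, and its log2 fold change of -1.38 (SE 0.59) comes from a fit that asked for 2 arrays per group.

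The stefins shared an order of control mice that neither calprotectin gene had in full. For Stfa2, Stfa2l1, Stfa3 and Cstdc6 alike, control mouse 3 was highest, followed by mice 4, 1 and 2. For Stfa2, mice 1 and 2 were nearly level, at 0.70 and 0.69. S100a8 departed from this order in the place of mouse 1 alone, running 1, 3, 4 and 2 from the top, and S100a9 ran 1, 2, 3 and 4. Averaged over Stfa2l1, Stfa3 and Cstdc6, the control mice ran from 0.86 (mouse 2) to 4.02 (mouse 3) and the curcumin mice from -0.10 to 0.22. Control mouse 2 had a calprotectin mean of 2.56, inside the range of the other control mice, together with the lowest stefin mean of its group.

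**Figure D2:**
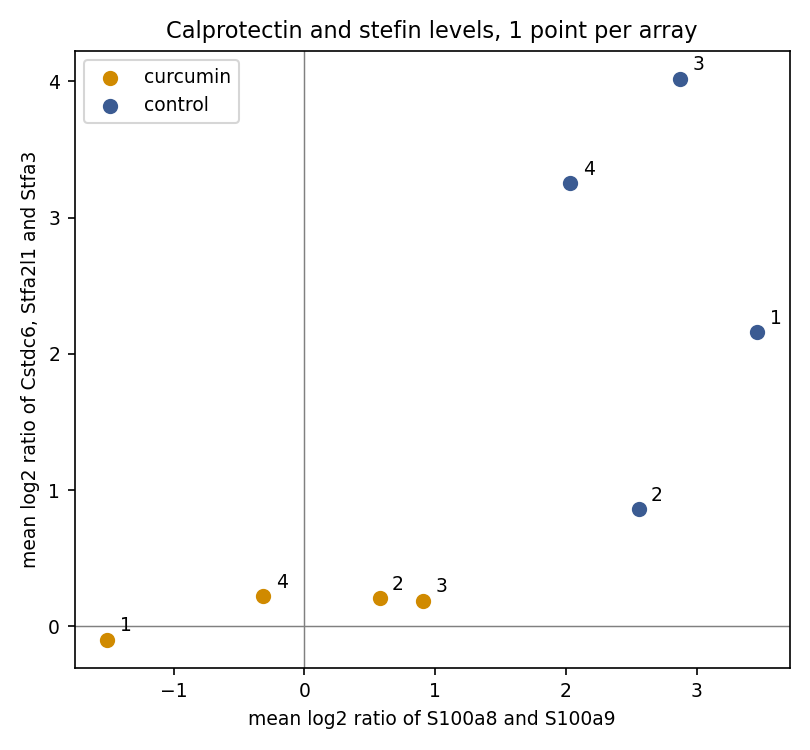
Each point is 1 array, labelled with its number, with the mean log2 ratio of S100a8 and S100a9 on the horizontal axis and of Cstdc6, Stfa2l1 and Stfa3 on the vertical axis, curcumin in orange and control in blue. The curcumin arrays spread along the calprotectin axis from -1.51 to 0.91 at nearly constant stefin level, and the control arrays spread along the stefin axis from 0.86 to 4.02.

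The stefins spread widely among control mice alone, and the calprotectin genes in both diets. Among control mice the SD of Cstdc6 was 1.49, that of Stfa3 1.32 and that of Stfa2l1 1.31, against a median SD of 0.15 over 16012 named genes with values on all arrays. Only 14 of those genes had a control SD as large as that of Cstdc6, itself included. Among curcumin mice the stefin SDs of 0.11 to 0.22 were near the median of 0.13. Whether these small SDs come from probes near background was not tested, since the values hold no intensities. For S100a9 the SD was 1.27 among curcumin mice, reached by 16 genes, and 0.60 among control mice, reached by 372 genes. S100a8 had an SD of 0.90 among curcumin mice, reached by 45 genes, and of 0.76 among control mice, reached by 135 genes. These spreads over 4 mice per diet are given without a test. The limma fit takes 1 variance per gene for both diets. The control variance over the curcumin variance was 34.8 for Stfa2l1, 147 for Stfa3 and 54.9 for Cstdc6. The SEs of these stefins, and calls made from them, thus rest on an equal spread that their values do not show.

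The genes lie in 2 places in the mouse genome (RefSeq on GRCm38.p6, used here for the order of genes). S100a8 and S100a9 neighbour each other on chromosome 3 within a run of other S100 genes and genes of the cornified skin. On chromosome 16 the stretch bounded by Csta1 and Stfa3 holds 12 protein-coding genes, all with stefin or cystatin symbols apart from Gm7260. A probe was named for 7 of the 12 and 4 could be tested. The one tested gene of this stretch outside the members, Csta2, had log2 ratios of 0.02, 0.09, -0.08 and 0.05 on curcumin arrays 1 to 4 and 1.28, 0.51, 3.29 and 2.71 on control arrays 1 to 4, the stefin order again. With a log2 fold change of -1.93 (SE 0.52) it missed the threshold (adjusted p = 0.0755 in limma), and without control array 2 it passed, at a log2 fold change of -2.41. The SD of Csta2 was 0.07 in curcumin mice and 1.28 in control mice, which the fit joins into 1 variance. Csta1 had 2 curcumin values, 0.24 and 0.43, and 3 control values between 0.29 and 0.82.

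The 5 tested genes on each side of the chromosome 16 stretch had log2 fold changes between -0.57 and 0.50, and none of these 10 passed (smallest adjusted p = 0.0898 in limma). Around S100a8 and S100a9, 1 of 10 flanking genes fell, S100a4, and the 10 ranged from -0.58 to 0.07. These neighbours were looked up after the members' values were known.

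**Figure D3:**
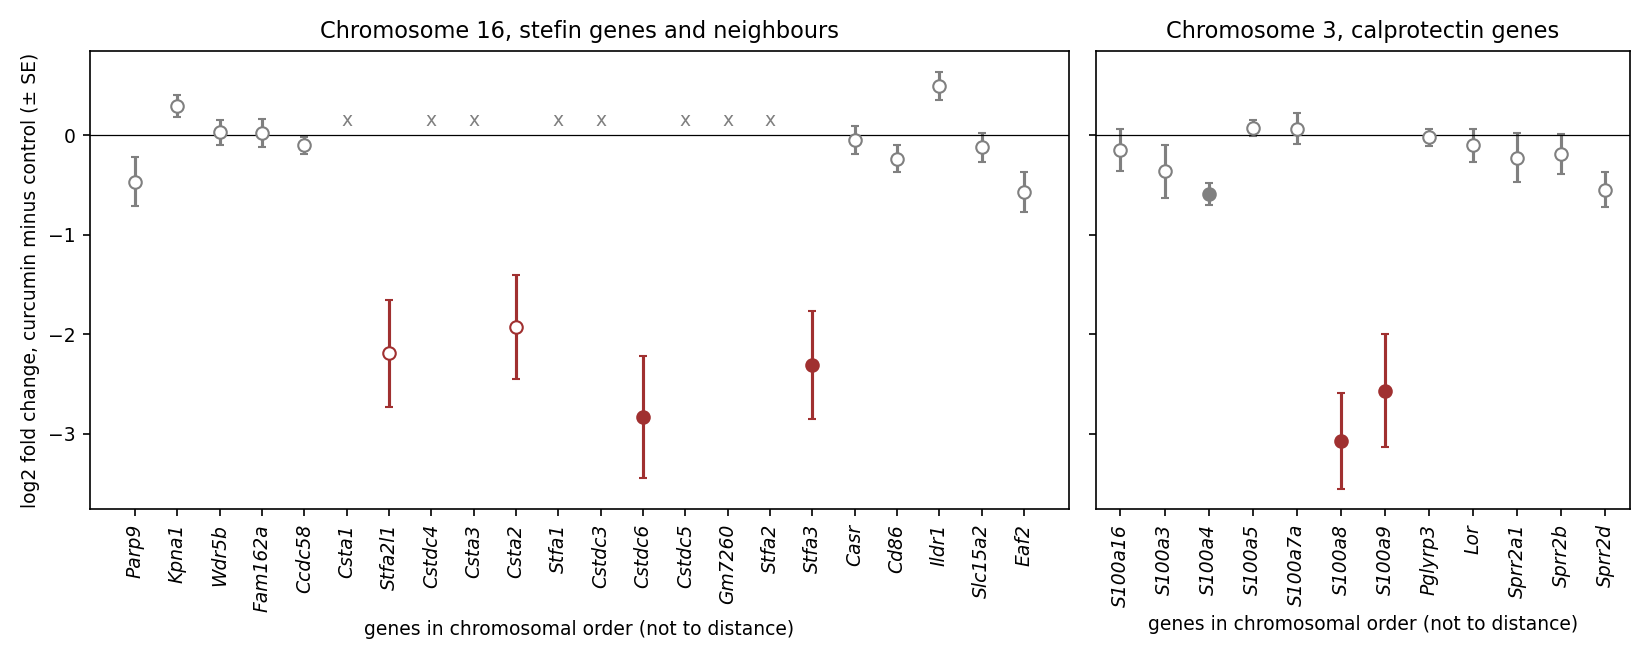
Log2 fold change, curcumin minus control, with SE (vertical axis) for genes in chromosomal order along chromosome 16 (left) and chromosome 3 (right); red marks genes of the stefin stretch and the calprotectin pair, grey the 5 tested genes on each side, filled symbols an adjusted p under 0.05 and x a gene with no test. The tested stefin genes lie between -2.83 and -1.93, and their neighbours between -0.57 and 0.50.

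The stefin genes resemble each other around their starts. In windows of 250 bases before and 50 after the RefSeq start, Stfa2 and Stfa2l1 were identical at 90.5% of aligned positions, and Stfa1, Stfa2, Stfa2l1 and Stfa3 were identical at 78.2% to 90.5% in all pairs. Against S100a8 the stefin windows reached 45.6% to 49.1%, and S100a8 and S100a9 matched each other at 45.5%. The window of Csta2, whose values followed those of the stefins, matched theirs at 42.1% to 45%. A run of 17 bases, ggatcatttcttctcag, beginning 1 to 5 bases before the start, was common to Stfa1, Stfa2, Stfa2l1 and Stfa3, and of 32851 mouse windows 6 held it, the remaining 2 being those of Csta3 and Cstdc5 in the same stretch. The probes' own sequences were not used here, and how much of one copy's RNA binds the probe of another was not tested, so the single stefin values are uncertain as readings of 1 gene each.

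The windows of both calprotectin genes and of 2 stefins are shown to set the families side by side (RefSeq, GRCm38.p6). S100a8 is at chr3:90668821-90669120 on the plus strand, S100a9 at chr3:90695672-90695971 on the minus strand, Stfa2l1 at chr16:36156561-36156860 on the plus strand and Stfa3 at chr16:36455343-36455642 on the minus strand. Capitals mark matches, on either strand, to TATAAA (the TATA box), TTTAAA (a variant of it, added after the sequences were seen), TTNNGCAA (bound by C/EBP factors), GAGGAA (the core bound by PU.1) and TTCNNNGAA (bound by STAT factors). In the S100a8 window TATAAA follows a PU.1 core with no base between them.
S100a8: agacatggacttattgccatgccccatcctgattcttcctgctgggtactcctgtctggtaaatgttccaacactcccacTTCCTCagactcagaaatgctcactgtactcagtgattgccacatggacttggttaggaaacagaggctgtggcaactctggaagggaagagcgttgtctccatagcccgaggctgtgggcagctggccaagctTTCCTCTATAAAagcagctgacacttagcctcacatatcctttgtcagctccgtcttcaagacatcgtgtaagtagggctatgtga
S100a9: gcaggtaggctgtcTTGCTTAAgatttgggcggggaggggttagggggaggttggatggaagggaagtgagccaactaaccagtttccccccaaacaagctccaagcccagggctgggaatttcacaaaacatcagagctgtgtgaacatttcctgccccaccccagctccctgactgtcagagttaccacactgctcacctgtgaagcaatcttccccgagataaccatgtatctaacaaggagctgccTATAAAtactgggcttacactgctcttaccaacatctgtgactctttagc
Stfa2l1: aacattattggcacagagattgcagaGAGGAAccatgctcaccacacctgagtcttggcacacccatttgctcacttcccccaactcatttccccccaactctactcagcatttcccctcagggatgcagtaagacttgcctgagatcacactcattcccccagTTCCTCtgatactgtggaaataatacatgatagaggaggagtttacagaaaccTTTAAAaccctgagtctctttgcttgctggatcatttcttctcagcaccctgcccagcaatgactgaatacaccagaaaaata
Stfa3: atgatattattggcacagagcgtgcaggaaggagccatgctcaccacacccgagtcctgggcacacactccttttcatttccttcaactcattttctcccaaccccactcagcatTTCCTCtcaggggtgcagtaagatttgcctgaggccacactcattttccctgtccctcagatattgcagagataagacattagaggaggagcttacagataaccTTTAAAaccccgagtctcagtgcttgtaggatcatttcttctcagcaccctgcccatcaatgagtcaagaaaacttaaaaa

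S100a8 holds TATAAA 30 bases before its start, and S100a9 holds it at the start itself. None of the 4 stefin windows searched holds TATAAA, and each holds TTTAAA between 29 and 33 bases before the start. The PU.1 core is in the windows of S100a8 and of all 4 stefins and not in that of S100a9, and the C/EBP letters are in those of S100a9 and Stfa1. No STAT match was found in any of the 6. Over all 32851 windows the shares were 13.6% for TATAAA, 13.2% for TTTAAA, 10.8% for TTNNGCAA, 28.3% for GAGGAA and 8.30% for TTCNNNGAA. A match describes the letters in the window and says nothing of binding.

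The genes whose pattern over the 8 arrays was nearest to that of the members differed between the families. Nearness was the root mean square difference of log2 ratios, each gene centred on its own mean, over 16007 named genes. Nearest to the mean of S100a8 and S100a9 was Ido1, an interferon-induced enzyme that breaks down tryptophan, at 0.42 log2 units. Ido1 had log2 ratios of -1.29, 1.06, 1.38 and -0.00 on curcumin arrays 1 to 4, against 2.64, 2.19, 2.98 and 2.30 on control arrays 1 to 4. Its curcumin mice stood in the order of S100a8 and S100a9. Next came Il1b, the gene of the inflammatory cytokine interleukin 1 beta, at 0.64, the interferon-induced GTPase genes Gbp3 at 0.72 and Iigp1 at 0.74, and 2210407C18Rik at 0.75.

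Nearest to the stefin mean was Csta2, at 0.31 log2 units. It was followed by Hp, which encodes the haemoglobin-binding plasma protein haptoglobin, at 0.35, and Clec4d, a C-type lectin receptor of myeloid cells, at 0.38. Wfdc21, of the whey acidic protein family, lay at 0.39 and Ctla2b, which resembles the propeptide of a cathepsin, also at 0.39. Hp had log2 ratios of -3.95, -3.69, -3.26 and -3.67 on curcumin arrays 1 to 4, against -2.47, -3.10, -0.46 and -0.89 on control arrays 1 to 4. Control mouse 3 was again highest and control mouse 2 lowest. These 10 genes were picked for the likeness of their values over mice of both diets, and likeness here includes the diet difference.

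Other genes of both families and of their surroundings were counted from lists, and here the diet difference was tested in limma with Benjamini-Hochberg adjustment over 23814 measurements, of which 4.54% passed. The median log2 fold change of all measurements was -0.02. Of 11 other S100 genes tested, 2 fell and 1 rose, with a list median of -0.14. S100a11 fell (log2 fold change -0.81, SE 0.14, adjusted p = 0.0149), as did S100a4, which marks fibroblasts and myeloid cells (-0.58, SE 0.11, adjusted p = 0.021). The 2 probes of S100a4 differed, at -1.20 and 0.03. S100a13, which takes part in the release of proteins that lack a signal peptide, rose (0.56, SE 0.12, adjusted p = 0.033). Each of these calls depended on single arrays. S100a11 did not pass without control array 4 (adjusted p = 0.0504), nor S100a4 without control array 4, curcumin array 1 or curcumin array 4 (up to 0.0637). S100a13 passed in 2 of 8 such fits, those without control array 2 and without curcumin array 1 (up to 0.0956 in the others).

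Of 15 other cystatin genes tested, none passed, 6 had an unadjusted p under 0.05, and the list median was -0.23. With only complete probes averaged, 1 passed, Cst6, a secreted cystatin of epithelium (log2 fold change -0.51, adjusted p = 0.0478), which in the main test had -0.79 (SE 0.20, adjusted p = 0.0623). The 2 probes of Cst6 gave -0.31 (values on 6 arrays) and -0.51 (8 arrays), so the -0.79, beyond both, comes from joining different probes on different arrays. Fetub, a cystatin-domain protein secreted by liver, had -0.56 (SE 0.14, adjusted p = 0.0627). Among the cysteine cathepsins, the proteases that stefins inhibit, 3 of 9 fell and none rose, with a list median of -0.38. Ctsc, which activates the serine proteases of neutrophil granules, averaged -0.09 ± 0.24 in curcumin mice and 1.37 ± 0.36 in control mice (SD, n = 4 each; log2 fold change -1.46, SE 0.19, adjusted p = 0.00413). Ctsh, an aminopeptidase of lysosomes, averaged -1.36 ± 0.08 in curcumin mice and -0.22 ± 0.13 in control mice (-1.14, SE 0.09, adjusted p = 0.000635). Both passed whichever array was left out. Ctsz fell by 0.75 on the log2 scale (SE 0.17, adjusted p = 0.0385), and of the 8 fits that leave out 1 array it passed in the one without curcumin array 3 alone (up to 0.109 in the others, without control array 4).

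Of 9 genes for receptors of calprotectin and their signalling partners, 1 fell and none rose, with a median of -0.20. It was Ly96, which encodes the co-receptor MD-2 of Toll-like receptor 4 (log2 fold change -0.68, SE 0.12, adjusted p = 0.0174). The call was lost without control array 4, curcumin array 1 or curcumin array 4 (adjusted p up to 0.0587). Tlr4 itself had -0.21 (SE 0.19, adjusted p = 0.62). Of 15 inducers and transcriptional regulators, 3 fell and none rose, with a median of -0.34. Il1b fell to 0.86 ± 0.76 in curcumin mice, against 3.17 ± 0.67 in control mice (-2.31, SE 0.42, adjusted p = 0.0174), and was lost without control array 4 or curcumin array 4 (up to 0.0589). The receptor gene for oncostatin M, Osmr, fell by 0.60 on the log2 scale (SE 0.08, adjusted p = 0.00571), although its 2 probes gave -1.21 and 0.02. Cebpd, a C/EBP factor, fell by 0.81 on the log2 scale (SE 0.18, adjusted p = 0.0352) and passed only without control array 2 among the 8 fits that leave out 1 array (up to 0.101 in the others, without control array 4).

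Some markers of the cells that carry calprotectin fell as well. Of 20 neutrophil markers tested, 5 fell and none rose, with a list median of -0.67, and per array the list median lay between -0.04 and 0.01 in curcumin mice and between 0.24 and 1.26 in control mice. Ncf4 and Cybb, subunits of the phagocyte oxidase, both fell. The log2 fold change was -1.65 for Ncf4 (SE 0.20, adjusted p = 0.00365) and -1.17 for Cybb (SE 0.15, adjusted p = 0.004). The 2 probes of Cybb gave -1.89 and -0.44. Ltf, the lactoferrin of neutrophil granules, fell by 1.13 on the log2 scale (SE 0.24, adjusted p = 0.0314) and passed only without control array 2 among fits that leave out 1 array (up to 0.0896). The granule genes Ngp, Lcn2, Camp, Mpo, Ctsg, Prtn3 and Elane did not pass (adjusted p from 0.0756 for Ngp to 0.70 for Elane in limma). In this list 19 of 20 log2 fold changes lay below 0, and that of Prtn3 was 0.12. Of 13 monocyte and macrophage markers, 5 fell and none rose, with a list median of -0.80. Lyz2, the lysozyme of macrophages, fell by 1.59 on the log2 scale (SE 0.21, adjusted p = 0.00512), on 1 of its 2 probes because the other held the shared value on all arrays. The complement genes C1qc (-1.25, SE 0.14, adjusted p = 0.00241) and C1qa (-1.13, SE 0.19, adjusted p = 0.0127) also fell. Per array this list's median lay between -0.08 and 0.29 in curcumin mice and between 0.42 and 1.29 in control mice. The part of these cells in the members' differences was not tested.

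Part of the stefin order, control mice 3 and 4 above mice 1 and 2 whatever the order within each pair, was also counted in the lists. Control mice 3 and 4 both exceeded mice 1 and 2 in 12 of 18 neutrophil markers with values on all arrays (66.7%), against 13.3% of 21598 measurements. The count was 2 of 13 for monocyte and macrophage markers (15.4%), 3 of 9 for receptors and partners (33.3%), 4 of 15 for other cystatins (26.7%) and 2 of 5 for red blood cell genes (40%), and the remaining lists lay between 0% and 23.1%. Camp, the gene of the granule peptide cathelicidin, lacked a value on curcumin array 2 and is not among the 18. Picked after its values were seen, it had log2 ratios of 0.01, -0.16 and 0.19 on curcumin arrays 1, 3 and 4. On control arrays 1 to 4 it had 1.76, 0.30, 3.99 and 2.54. The order of the calprotectin genes among curcumin mice, 3, 2, 4 and 1 from the top, was found in 3.33% of all measurements, in 2 of 13 inducers and regulators, in 1 gene each of the cathepsin, other cystatin, squamous and red blood cell lists, and in none of the 18 neutrophil markers, a number of genes too small to set that 0 apart from 3.33%. These orders were chosen for counting after the members' values were seen and carry no test, and genes on the same arrays are not independent.

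Squamous epithelium also expresses S100a8, S100a9 and stefins, and colon pieces taken near the anus can include it. Of 21 squamous markers, 1 rose and none fell, with a list median of 0.03, and per array the list median lay between -0.13 and 0.03 in curcumin mice and between -0.11 and 0.03 in control mice. The one that passed, Krt13, a keratin of moist stratified epithelium, had 0.48 (SE 0.11, adjusted p = 0.042). Its 2 probes had 0.78 and -0.07 and the second had values on 5 arrays only, so its mean joins different probes on different arrays; with complete probes alone it did not pass (adjusted p = 0.0812). Among fits that leave out 1 array it passed in 2 of 8, those without control array 3 and without curcumin array 2. Of 6 red blood cell genes none passed and none had an unadjusted p under 0.05 in limma, with a median of -0.01. Hba-a1 had 0.51 (SE 0.41, adjusted p = 0.583) and Hba-a2 -0.32 (SE 0.30, adjusted p = 0.647), so markers of blood did not move detectably with the diet at this number of arrays. Of 8 colon epithelium markers 3 rose and none fell, with a median of 0.54. They were Car4 (2.41, SE 0.36, adjusted p = 0.00828), Slc26a3, which exchanges chloride for bicarbonate (2.17, SE 0.21, adjusted p = 0.00176) and the intestinal transcription factor Cdx1 (0.51, SE 0.10, adjusted p = 0.0201). The 3 probes of Slc26a3 gave 0.20, 2.35 and 3.26, and Cdx1 did not pass without control array 4 (adjusted p = 0.0568).

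**Figure D4:**
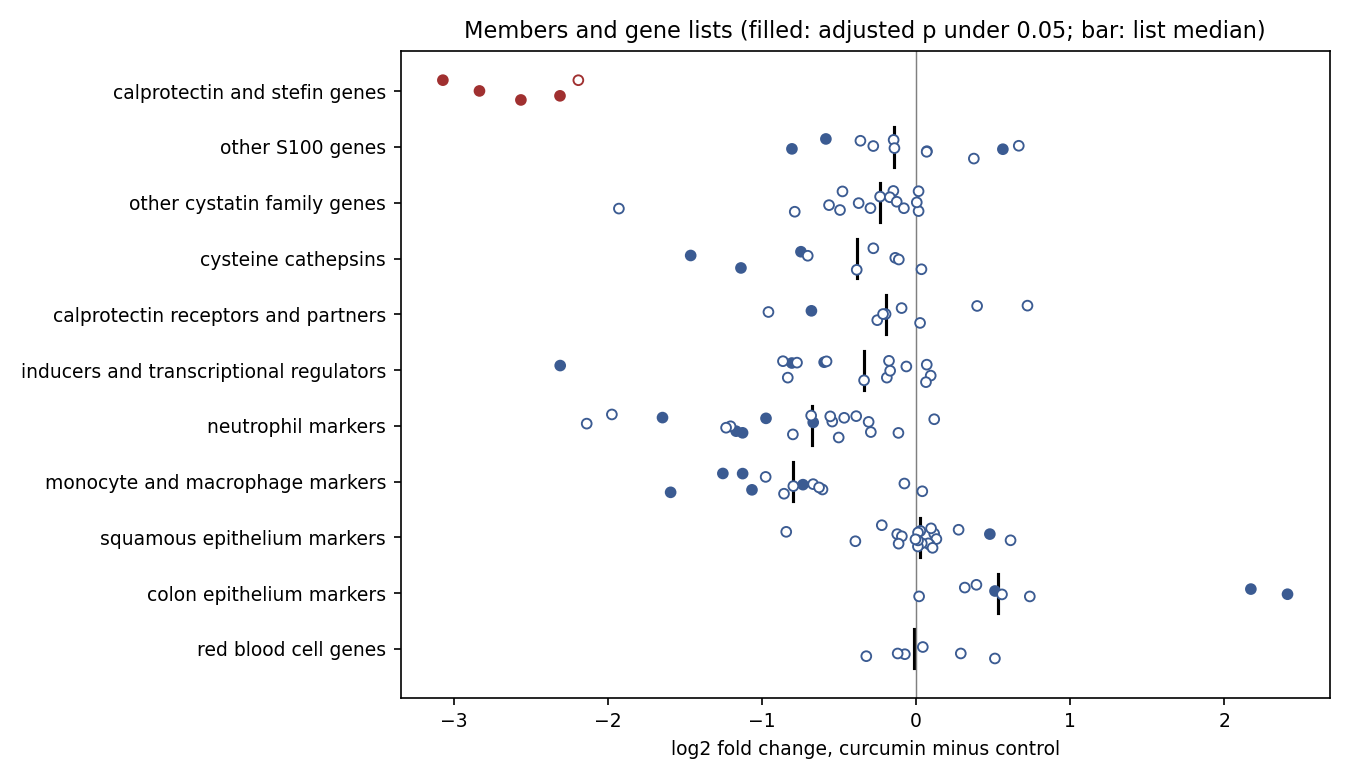
Log2 fold change, curcumin minus control (horizontal axis), of each tested gene of the calprotectin and stefin set (red) and of 10 gene lists (blue), with filled symbols for an adjusted p under 0.05 and a bar at each list's median. The members lie between -3.07 and -2.19, the neutrophil list has its median at -0.67, the squamous list at 0.03 and the colon epithelium list at 0.54.

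The arrays came from 2 ranges of slide numbers, per the labels, one holding all control arrays with curcumin arrays 1 and 2, the other curcumin arrays 3 and 4. Within the shared range the log2 fold changes of the members were as large: -3.37 for S100a8 (SE 0.61), -3.03 for S100a9 (SE 0.66), -2.87 for Cstdc6 (SE 0.86), -2.35 for Stfa2l1 (SE 0.75) and -2.34 for Stfa3 (SE 0.76). With 2 curcumin arrays fewer, the count of members past the threshold went to 0 of 5, and 170 of all measurements passed. Both curcumin arrays of the shared range are among those on which the members were chosen. Curcumin array 1 was also the lowest for S100a8 and S100a9. These values are thus no separate check on an effect of the slides.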

How the data were processed

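Colon RNA of 8 mdr1a-/- mice, 4 fed curcumin and 4 fed the control diet, was measured on 8 Agilent 2-colour arrays. Each array was deposited as log2 ratios of its channels. The submitters' processing notes name limma; its version, the base of the logarithm (taken as 2) and the direction of the ratio are not given in the sources used here. Between 5033 and 10529 values per array are missing. A log ratio shared by 191 to 397 features of an array was set aside, where the next most frequent value was held by at most 4. Array medians lie between -0.02 and -0.01.

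Probes were named through the platform annotation: 32042 features have 1 symbol, 47 several and 12201 none. Of the 32089 named probes, 31906 were matched by gene identifier to RefSeq. Probes of 1 symbol were averaged. Measurements with at least 3 values in each group (23814) were compared, curcumin minus control, by lmFit and eBayes of limma (version 3.58.1, under R 4.3.3), with Benjamini-Hochberg adjustment over all of them and a threshold of 0.05. The script was tested on simulated data in which each gene had the same spread in both diets. That run thus says nothing of genes with unequal spreads, such as the stefins. Groups were taken from the sample labels, and the series design calls the 4 mice of a diet biological replicates.

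The members and the gene lists were chosen with earlier results of these data known. From each list, up to 3 passing genes with the largest log2 fold change in size are named, or the 2 with the smallest p where none passed. Genes named outside that rule include Tlr4, Camp, Csta1 and the granule genes that did not pass, picked after their values were seen. For the check of the tissue label all 8 tested colon epithelium markers are named. Alternatives covered the shared value, probe averaging, missing values, normalization, array weights, replicate number, slide numbers and each array left out. The rutin diet was not analysed here.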

Additional observations from a re-analysis of the deposited data

Results flagged for a closer look

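In 4 of 101 groups of 4 arrays 1 value stood apart from the others by Dixon's criterion (the gap to the nearest value over the range of the group, at a level of 0.05), and chance gives such a value in about 1 in 20 groups. None belonged to a calprotectin or stefin gene. S100a11 had a log2 ratio of -1.12 on curcumin array 1, against -0.62 to -0.53 on the other curcumin arrays. Slc26a3 had 2.44 on curcumin array 2, against 1.59 to 1.67 on the others. S100a4 had 0.16 on control array 2, against -0.29 to -0.22 on the others, and Cdx1 had 0.36 on control array 2, against 0.49 to 0.51.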

How the results depend on the processing

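All 109 recomputed log2 fold changes of the members kept their direction, and 1 moved by more than 1 SD, that of Stfa2 (-2.26 with a replicate block). For Stfa2 that block sets curcumin arrays 3 and 4 against control arrays 3 and 4 alone, its highest control values. The members were chosen on this contrast, and the diets overlapped in none of their probes. Leaving out arrays, blocking or weighting could thus not have turned a sign, and the kept direction is not read as support. Ranges over the alternatives were -3.37 to -2.67 for S100a8, -3.03 to -2.01 for S100a9, -3.45 to -2.30 for Cstdc6, -2.86 to -1.82 for Stfa3, -2.74 to -1.76 for Stfa2l1 and -2.26 to -0.97 for Stfa2; both ends of Stfa3, Stfa2l1 and Cstdc6 came from leaving out control array 2 (lowest) or 3 (highest). With every probe on its own, a list gene counted once any probe passed, and each named gene outside the members was taken at its probe of smallest p. Read so, no recomputed gene-level fold change changed sign. The remaining probes of S100a4 (0.03), Osmr (0.02) and Krt13 (-0.07) had signs opposite to those of their genes. Counts past the threshold moved more. Over all measurements the count was 1082, with 650 under the replicate block, 317 with the slide number range as a block, 170 within the shared range and 1677 with array weights. Of these calls 56.0% were lower with curcumin, against 44.4% after quantile normalization, 49.5% with the slide block and 38.8% within the shared range, so which direction holds most calls depends on these settings. The replicate block gave 1 member, 2 receptor or partner genes, 3 monocyte and macrophage markers and 0 squamous markers. The slide block gave 1 member, 1 other S100 gene, 0 receptors, 1 inducer, 2 neutrophil, 2 monocyte and macrophage and 0 squamous markers. The shared range gave 0 members, 0 other S100 genes, 0 receptors, 0 inducers, 0 neutrophil, 1 monocyte and macrophage, 0 squamous and 1 colon epithelium markers. Array weights gave 2 other cystatins, 2 receptors, 5 inducers, 11 neutrophil and 10 monocyte and macrophage markers. Every probe on its own gave 1 other cystatin and 0 squamous markers, as did averaging complete probes alone (1 and 0), an alternative chosen after seeing the data; quantile normalization gave 2 squamous markers. The causes of these shifts in counts were not tested, and the shared range also has fewer arrays.

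Leaving out 1 array gave 484 (without curcumin array 4) to 1311 (without control array 3) measurements, 1 to 4 members, 0 to 3 other S100 genes, 0 to 2 other cystatins, 2 to 3 cathepsins, 0 to 2 receptors, 1 to 4 inducers, 2 to 10 neutrophil, 3 to 8 monocyte and macrophage, 0 to 1 squamous, 2 to 4 colon epithelium and 0 to 0 red blood cell markers. For the single genes named, 510 recomputed calls stayed on their side of the threshold, 106 were lost and 11 gained. Where probes stood alone, these calls used the probe of smallest p. The replicate numbers were not taken as pairs, because nothing in the labels links arrays of equal number. Arrays of the same replicate number had deviations that correlated between -0.03 and 0.20, and 2 of 4 correlated best with their own number. With 4 numbers this cannot settle whether they are pairs. Signal over background is not in the values used here, so which low ratios lie at background is not known.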
